A study of Mus musculus with 4 samples.

Results

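The genes considered here encode voltage-gated sodium channels: the pore-forming alpha subunits Scn1a, Scn2a, Scn3a, Scn8a, Scn9a and Scn10a and the auxiliary beta subunits Scn2b and Scn3b. They are 8 of the 22225 protein-coding genes in the GENCODE M1 annotation of the mm9 mouse genome, where Scn2a carries the name Scn2a1. A gene was given every REST-bound region whose midpoint lay inside it or within 20 kb of any of its transcription start sites (TSSs), and for a gene with none the nearest region was taken. By this rule 3 of the 8 genes, Scn2a, Scn3b and Scn10a, held 4 of the 2504 listed regions.

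The study mapped the transcriptional repressor REST by chromatin immunoprecipitation and sequencing (ChIP-seq) in undifferentiated mouse embryonic stem cells (ESCs). The cells were the wild type line N6 of strain C57BL/6, with no treatment named, kept in medium with serum and leukemia inhibitory factor on irradiated fibroblasts and passaged on gelatin before harvest. The antibody was a rabbit polyclonal against a C-terminal REST peptide, and the precipitates of technical and biological replicates were combined into 1 library. The other 3 of the 4 samples, H3K27me3 in wild type ESCs, H3K27me3 in ESCs lacking REST, and input DNA, were not analysed here.

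Voltage-gated sodium channels open on depolarization and carry the rising phase of the action potential, and beta subunits modify the gating and surface placement of the alpha subunits. REST is a zinc finger repressor of many neuronal genes outside the nervous system. It binds the RE1 element, which has a left and a right part separated by a short free stretch, and a silencer of this kind upstream of rat Scn2a was among the elements through which REST was identified.

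The list gave the position and a rank number for each region on 20 chromosomes, with a median width of 264 bp. Which end of the ranking was the more enriched is not given in the sources used here. A full RE1 was present in 184 of the 250 regions with the lowest rank numbers (73.6%) and in 73 of the 250 with the highest (29.2%), and their median widths were 343 and 165.5 bp. Rank numbers are therefore given as order only. With 1 pooled library there was no replicate spread, the depth behind each region was unknown, and a gene without a listed region is not shown to be unbound.

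The RE1s of the sodium channel regions are shown first, because the later comparisons turn on their letters. The consensus was derived from the 2498 listed regions lying over 100 kb from every sodium channel gene. Sequences run 5′ to 3′ on the strand of the element, with the left and right elements in capitals and the 2 free bases in lower case (N in the consensus).
Consensus: TTCAGCACCNNGGACAGCTCC
Scn2a, chr2:65458021-65458041, plus strand: TTCAGCACCacGGACAGCACC
Scn3b, chr9:40077325-40077345, minus strand: CTCAGCACCacGGACAGTAGC
Scn10a upstream of the GENCODE start, chr9:119616016-119616036, minus strand: TTCAGCACCacGGACAGAGCA
Scn10a intronic, chr9:119573419-119573439, plus strand: TTCAGCACCagGGACAGAGCT

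All 4 regions held a full RE1, defined as at most 5 mismatches in the 19 defined bases. Over the whole list 57.2% of regions held one, against 48 of 5007 windows of the same width placed 2 kb to each side (0.959%). With substitutions written as consensus base, position from 1 at the 5′ end of the RE1, and site base, the Scn2a element differed only by T19A. The Scn3b element carried T1C, C18T, T19A and C20G. The upstream Scn10a element carried C18A, T19G and C21A, and the intronic one C18A, T19G and C21T. Of these 11 mismatches, 10 lay at positions 18 to 21 (90.9%) and the other at position 1. The 2 Scn10a elements share C18A and T19G. In the 1433 regions with a full RE1, 2196 of 4860 mismatches (45.2%) lay at positions 18 to 21. This share is not matched for mismatch number, since 330 of the 1433 had 5 mismatches, more than any of the 4 elements. Position 19 of the consensus was nearly tied between T and G. The left element matched perfectly in Scn2a and both Scn10a sites, as it did in 326 of the 1433 regions (22.7%). The free bases were AC in Scn2a, Scn3b and the upstream Scn10a site, a pair found in 208 of the 1433 (14.5%). The Scn10a elements shared 19 of 21 bases with each other, and Scn2a shared 18 with Scn3b and 18 with the upstream Scn10a element.

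Among the alpha subunits, Scn2a, an early channel of the axons of excitatory neurons, had its region just upstream of the gene. The gene spans chr2:65458914-65605504 on the plus strand (ENSMUSG00000075318.6), and its region at chr2:65457915-65458190 had rank 472, with 18.8% of the list at lower numbers. The midpoint lay 0.862 kb upstream of the first of 4 GENCODE TSSs and 50.450, 61.053 and 62.285 kb upstream of the others. The RE1 scored 32.6 bits against the matrix of listed RE1s, above 99.6% of all listed regions, with or without a full RE1. The region was low in GC, at 33.1% against a list median of 51.6%, and only 0.16% of regions were lower. It is printed whole on the plus strand because a near-perfect RE1, in capitals, stands in this AT-rich sequence.
Scn2a region, chr2:65457916-65458190: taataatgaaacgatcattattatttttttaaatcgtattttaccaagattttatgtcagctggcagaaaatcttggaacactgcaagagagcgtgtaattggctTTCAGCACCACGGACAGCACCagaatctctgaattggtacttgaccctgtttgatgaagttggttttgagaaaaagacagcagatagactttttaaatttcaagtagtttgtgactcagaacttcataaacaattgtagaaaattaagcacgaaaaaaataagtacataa

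Scn10a, a channel of pain-sensing neurons that resists tetrodotoxin, was the only one of the 8 genes with a pair of regions. The gene spans chr9:119517584-119603478 on the minus strand (ENSMUSG00000034533.8). The region at chr9:119615950-119616180 had rank 1236 and lay 12.587 kb upstream of the GENCODE TSS, with an RE1 of 28.2 bits. A RefSeq start lies farther out, 24.672 kb upstream of the GENCODE one, and relative to it this region was 12.085 kb downstream. The region at chr9:119573314-119573525 had rank 1973 and lay 30.058 kb downstream of the TSS, with an RE1 of 26.7 bits in intron 10. The 2 regions differed in place and in element strand, while their GC contents were close, at 54.8% and 55.5%.

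Scn3b, a beta subunit with an immunoglobulin-like extracellular domain, had the lowest rank number of the 8 genes. The gene spans chr9:40076801-40099203 on the plus strand (ENSMUSG00000049281.8), and its region at chr9:40077188-40077521 had rank 283. The midpoint lay 0.552 kb downstream of the TSS at 40076802. The RE1 fell in a 5′ UTR exon of 1 of the 3 transcripts and in intron 1 of the other 2. It scored 25.5 bits, although it had the most mismatches of the 4 elements. This was above 74.4% of all listed regions, which include those without a full RE1. The median for regions with a full RE1 was 24.9 bits. The region was 333 bp wide, more than 88.9% of the list.

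**Figure D1:**
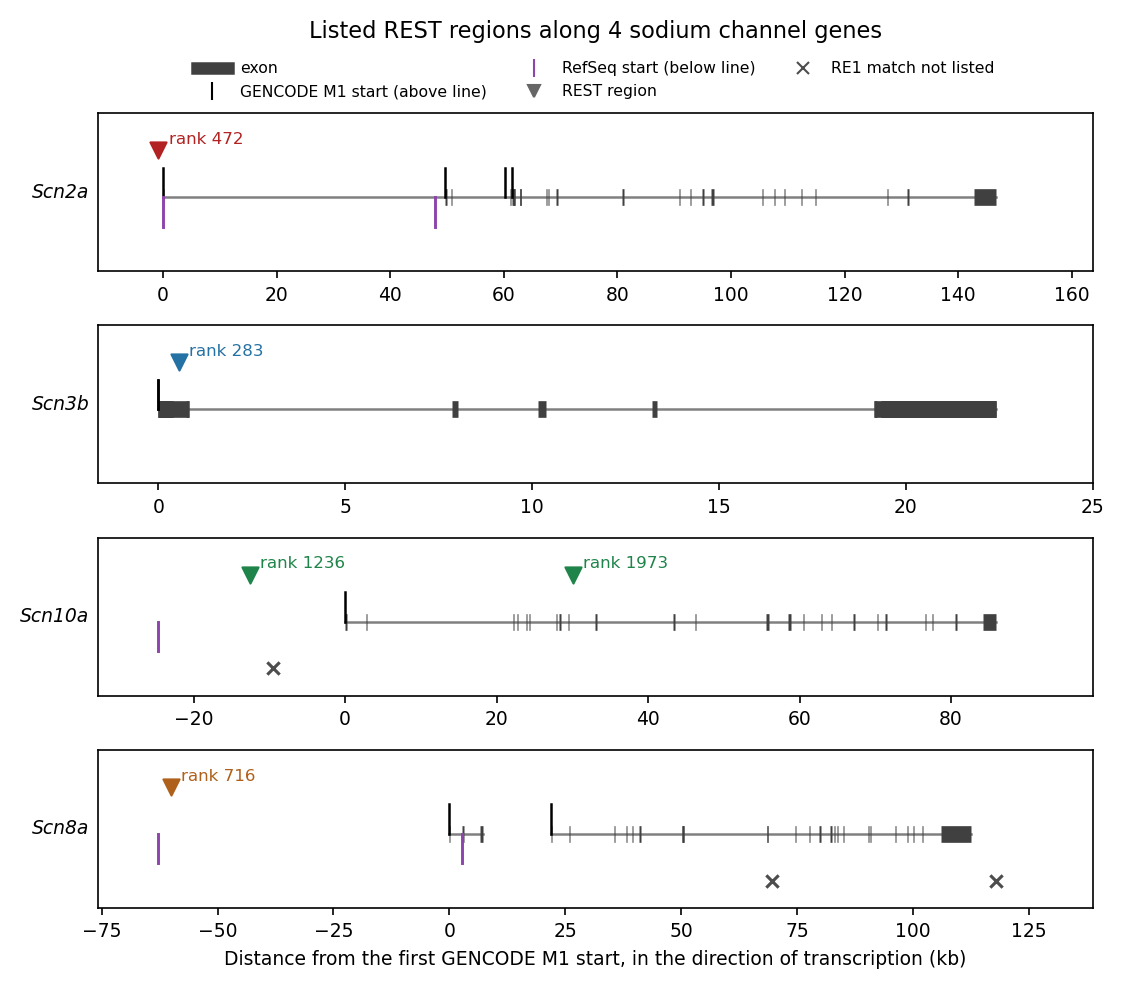
Maps of Scn2a, Scn3b, Scn10a and Scn8a with distance from the first GENCODE M1 start in kb on the horizontal axis; triangles are listed regions, ticks are start sites, boxes are exons and crosses are RE1 matches of at most 4 mismatches that lie outside listed regions. Regions sit 0.862 kb upstream of Scn2a and 0.552 kb inside Scn3b, while the Scn8a region sits 60.106 kb upstream of its first GENCODE start.

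Scn8a, the main channel of nodes of Ranvier in the adult, had no region by the rule, yet this depended on the annotation. The paper itself lists Scn8a among genes near REST-bound regions. It reports that H3K27me3 was lost there in ESCs lacking REST. Its 2 GENCODE M1 gene models cover chr15:100763860-100876360 on the plus strand, and the nearest region, rank 716 at chr15:100703601-100703906, lay 60.106 kb upstream of the first start. A TSS of Slc4a8, a bicarbonate transporter gene, was nearer at 59.0 kb. A RefSeq start of Scn8a at position 100701076 lies 62.784 kb upstream of the GENCODE one, and the region was 2.678 kb downstream of it. Adding RefSeq starts, an alternative chosen after seeing the data, gave 4 of 8 genes with a region, with 10.2% of all protein-coding genes as before.

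The Scn8a region held no full RE1, its best match having 6 mismatches and 5.3 bits. It held both elements without a mismatch on opposite strands, with no base between them, and it is shown on the minus strand with 5 bases on each side and the elements in capitals, the right element reading as its reverse complement.
Scn8a region, chr15:100703720-100703748: gccagGGAGCTGTCCTTCAGCACCgcagc

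The 5 regions therefore differed in element type and in rank. In the plot of score by rank, the 4 with a full RE1 lie in the band of regions with a full RE1, and the Scn8a region lies below it. The rank order did not follow the mismatches among these genes: Scn2a with 1 mismatch had rank 472 (median 754.5 over 96 such regions), Scn3b with 4 had rank 283 (median 1016 over 375), and Scn10a with 3 had ranks 1236 and 1973 (median 858.5 over 366). Each of these classes spread over nearly the whole list, from 5 to 2504 for regions with 3 mismatches.

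**Figure D2:**
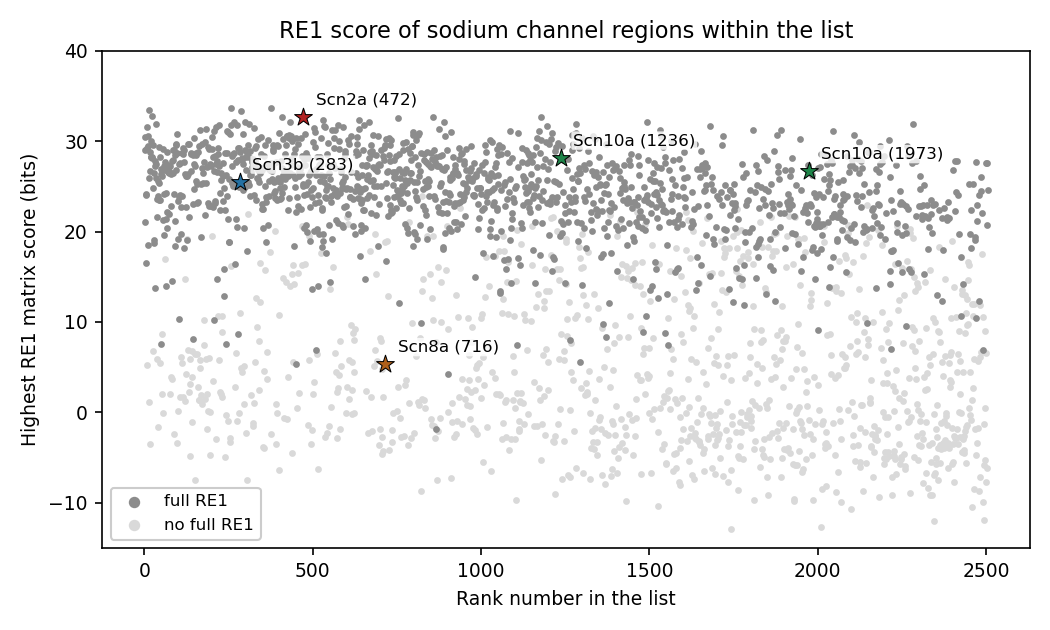
Highest RE1 matrix score in bits (vertical) against rank number (horizontal) for the 2504 listed regions, dark where a full RE1 is present; stars mark the sodium channel regions. Scn2a reaches 32.6 bits at rank 472 and Scn8a 5.3 bits at rank 716.

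The other 4 genes had no region within the window. Scn3a, an alpha subunit prominent in the embryonic brain, was the closest to it, with the Scn2a region 52.4 kb upstream of its nearest TSS. That region was also the nearest to Scn1a, a channel of inhibitory interneurons, at 698 kb, and to Scn9a, a channel of sensory and sympathetic neurons, at 923 kb. For the beta subunit gene Scn2b the nearest was rank 2055, 232 kb downstream. By GENCODE starts, the farthest nearest region inside the window was that of Scn10a at 12.6 kb. The closest outside it was that of Scn3a at 52.4 kb.

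Of sodium channel genes outside these 8, Scn4a of skeletal muscle, Scn7a, Scn11a of pain-sensing neurons and the beta subunit gene Scn4b had no region either, their nearest lying 119 kb (Scn11a) to 1051 kb (Scn7a) away. The 5 genes clustered on chromosome 2 (Scn3a, Scn2a, Scn1a, Scn9a and Scn7a) cover 1327.8 kb. This span held 1 listed region, that of Scn2a, which is near the 1.17 regions per Mb of the whole chromosome.

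**Figure D3:**
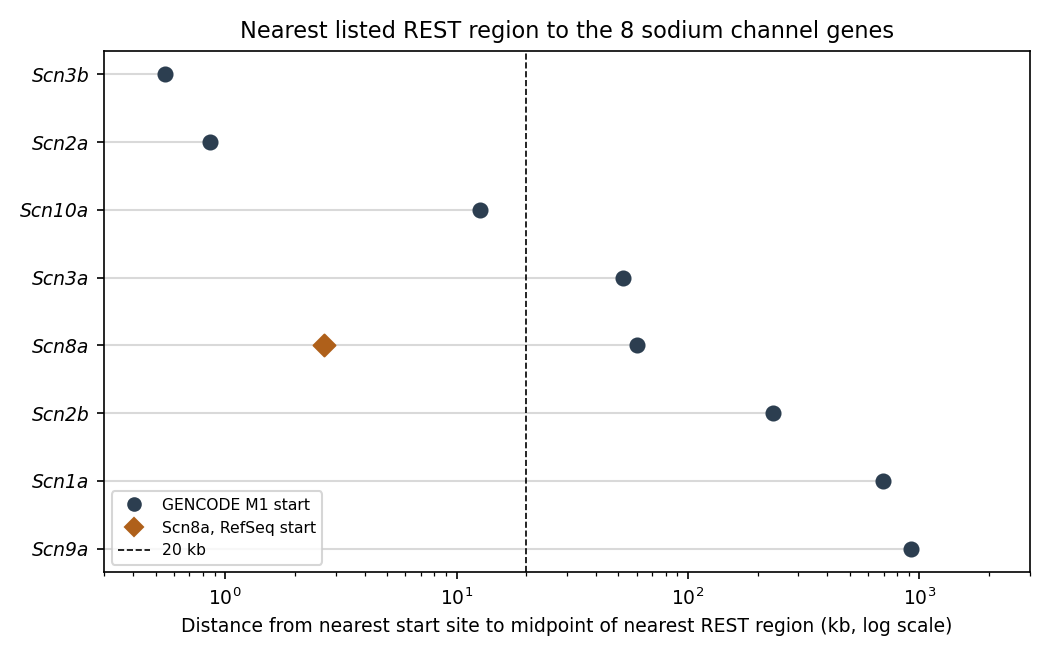
Distance in kb, on a log axis, from the nearest start of each of the 8 sodium channel genes to the midpoint of the nearest listed region; the diamond is Scn8a measured from its RefSeq start. Scn3b, Scn2a and Scn10a lie inside the dashed line at 20 kb.

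The count of 3 of 8 genes was 37.5% (exact Clopper-Pearson 95% interval 8.52 to 75.5%), beside 10.2% of all protein-coding genes, 2262 of 22225. The interval covers counting error over genes only, and with 8 genes it reaches below the background. The 8 genes were chosen with earlier results known and include every sodium channel gene with a region. Over all 14 sodium channel genes the count was 3, or 21.4% (interval 4.66 to 50.8%). The median best rank was 472 for the 3 genes and 1171 for all genes with a region. By the same rule 26 of 93 potassium channel genes, 7 of 10 calcium channel pore genes and 4 of 4 pacemaker channel genes had a region.

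**Figure D4:**
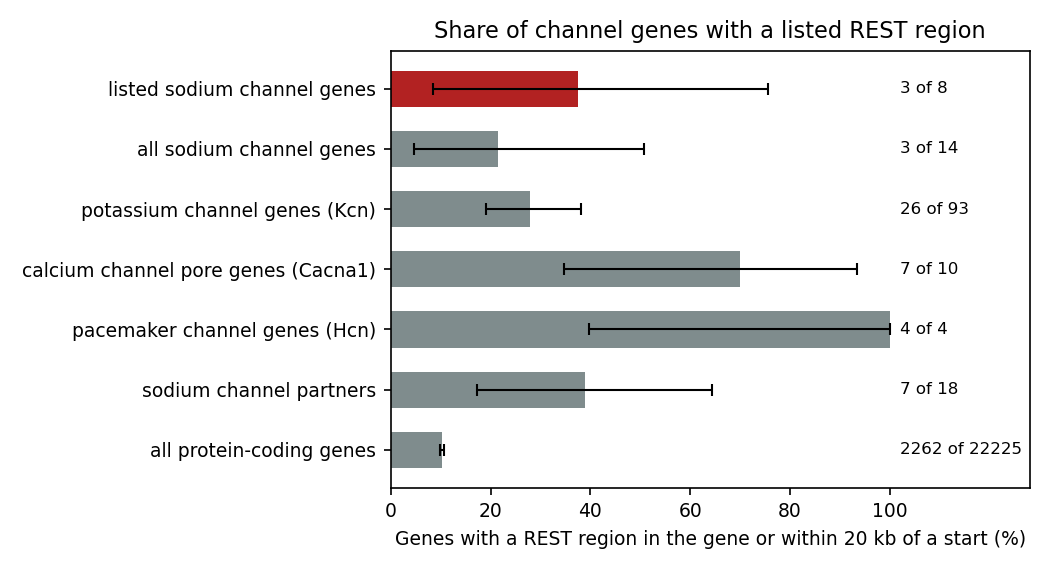
Percentage of genes with a listed region by the 20 kb rule, for the 8 chosen sodium channel genes (red), other channel lists, sodium channel partners and all protein-coding genes; bars start at 0 and lines are exact 95% binomial intervals. The chosen genes stand at 37.5% with an interval from 8.52 to 75.5%, and all genes at 10.2%.

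Of 18 genes whose products hold or regulate sodium channels at the axon initial segment and node, 7 had a region (38.9%), and the region of lowest rank number at each held a full RE1. Sptbn4, the spectrin of the axon initial segment, named Spnb4 in the annotation, had rank 91 at 0.1 kb upstream of its TSS. The adhesion molecule genes Nfasc (933 and 1115), Cntnap2 (1153 and 2206) and Nrcam (1542) had regions at these ranks. Fgf14, which encodes an intracellular growth factor homologue that binds the channels, had rank 1329, and Nedd4l, a ubiquitin ligase, had rank 2370. The Nrcam region lay 96.3 kb and the Nedd4l region 39.0 kb from the nearest TSS of the gene. Both counted only because they lay in the gene body. The ankyrin genes Ank3 and Ank2 had none.

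Next, RE1 matches in the sodium channel loci were compared with the list, each locus being the gene with 20 kb on each side. With at most 3 mismatches there were 4 matches in the 8 loci, and 3 of them, that of Scn2a and both of Scn10a, lay in a listed region. Genome-wide 764 of 1678 such matches did (45.5%), from 8 of 8 without a mismatch and 97 of 107 with 1 to 392 of 1213 with 3. The unlisted match was intronic in Scn8a, 47.6 kb downstream of the nearest TSS, and is shown for comparison with the listed elements.
Scn8a unlisted match, chr15:100833411-100833431, plus strand: CTCAGCACCaaGCACAGCCCC

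This match carried T1C, G13C and T19C and scored 18.2 bits, below every listed element of the 3 genes. The base of G13C occurred in 0.209% of listed RE1s. Of the 139 genome matches of at most 3 mismatches within 1 bit of its score, 4 lay in a listed region (2.88%). Listed matches had a median of 27.3 bits and unlisted ones 17.7. The matrix was built from listed RE1s, so listed matches score higher partly by construction. The score contrasts and the share for G13C are therefore not independent of the list. At 4 mismatches the Scn3b element was listed, and 1 match each near Scn10a (14.8 bits) and Scn8a (15.3 bits) was not. Genome-wide 431 of 8447 matches with 4 mismatches were listed (5.1%). The loci of Scn1a, Scn3a, Scn9a and Scn2b held no match of at most 4 mismatches. At 5 mismatches, the limit for a full RE1 in a region, the sodium channel loci together held 26 matches, 0 of them listed. Genome-wide 395 of 62500 such matches were listed (0.632%). The 26 were not divided by locus, so the loci without a closer match may hold some of them.

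**Figure D5:**
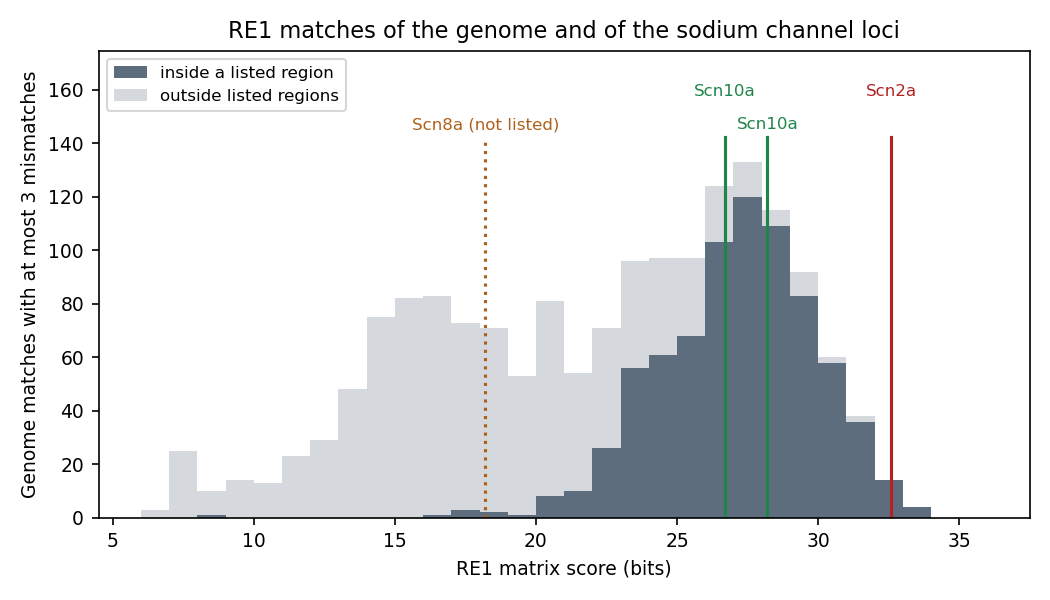
Number of genome matches of at most 3 mismatches (vertical) by RE1 matrix score in bits (horizontal), stacked as inside or outside listed regions; vertical lines mark the matches in sodium channel loci. The Scn2a match at 32.6 bits and the Scn10a matches at 28.2 and 26.7 bits fall where most matches are listed. The Scn8a match at 18.2 bits falls where few are. The matrix was built from listed RE1s, so the score is not independent of listing.

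Some elements recurred elsewhere. The 21 bases of the Scn2a element occurred at 4 places in the genome, and all 4 lay in listed regions: rank 410 at 43.1 kb from Kdm5b, a histone demethylase gene, rank 472 at Scn2a, rank 858 at 176.9 kb from the potassium channel gene Kcnd3, and rank 1177 at 19.8 kb from Fndc1. The intronic Scn10a element had an identical copy 2.0 kb from Lin28a, which encodes an RNA-binding protein of stem cells, in a region of rank 75 with 2 full RE1s. Among 1428 regions compared, 5 tied at 20 of 21 bases with the upstream Scn10a site, and the one of lowest rank number, 245, lay 461.3 kb from its nearest gene, Fam155a. For Scn3b 4 regions tied at 19 of 21, and the one of lowest rank number, 114, lay 2.9 kb from Rltpr. Identical elements thus stood at rank numbers as far apart as 75 and 1973.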

How the data were processed

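ChIP DNA was size selected, amplified by PCR (steps that can alter relative enrichment) and read on an Illumina Genome Analyzer II. The methods name Bowtie and the submitters' processing notes BWA, with build mm9; versions are not given in the sources used here. Only uniquely mapped reads were kept, so sites in repeats may be missing. PeakRanger and MACS calls were overlapped. Whether the deposited list is that overlap is not stated, and the paper reports fewer REST-bound regions than the 2504 listed. The deposited file gives positions and, as a score, the rank the authors set for each region, without height or p-value. Whether starts count from 0 or 1 is not stated; 0 was assumed.

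Sequence came from NCBIM37 with GENCODE M1, and start sites from RefSeq promoter sequences (GRCm38.p6) placed on NCBIM37 by exact match, 31872 of 32851 once. Scores are log2 odds from a matrix of listed RE1s. The search was tested on simulated data, recovering 200 of 200 planted RE1s. Python 3.11.15, numpy 2.4.6, scipy 1.17.1 and pysam 0.24.0 were used. The members and lists were chosen with earlier results of these data known. Some items that the rule names are not reported here. Named genes were the 8 members, other genes of the family, genes with a nearer start, partners with a region (at most 8) and, for each RE1, the gene nearest to its most similar region, ties going to the lowest rank number. No test was made, since 1 pooled library has no replicates. RefSeq starts, the other base at position 19 and the back-to-back class were chosen after seeing the data. Ank3, Ank2, Kcnd3 and Fndc1 were named after their values were seen. Alternatives covered distance, gene body, list depth, overlap, transcript type, mismatches and region width.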

Additional observations from a re-analysis of the deposited data

How the results depend on the processing

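Scn2a, Scn3b and Scn10a had a region under every planned setting: windows of 5 or 50 kb, the gene body left out, the 1252 lowest rank numbers, any overlapping base, and starts of protein-coding transcripts. The background share ranged from 5.38% to 17.2%. The number of their regions was 4, and it was 3 with 5 kb, with the gene body left out and with the lowest rank numbers. Adding RefSeq starts gave 4 genes and 5 regions. The lowest rank number of Scn10a was 1973 with 5 kb. A full RE1 was found in 4 of 4 regions with limits of 4, 5 or 6 mismatches and in 3 with a limit of 3. RE1 matches in the loci that lay in a listed region numbered 3 of 4 with at most 3 mismatches. They numbered 1 of 1 with at most 2 and 4 of 7 with at most 4. The limit itself sets how many matches are counted. Genome-wide the listed share fell from 8 of 8 matches without a mismatch to 431 of 8447 with 4 (5.1%). No replicate could be left out because replicates were pooled before sequencing. No paired analysis was possible because the groups share fewer than 2 replicate numbers and 1 sample was analysed. The list carries no height or read count for a region, so weak binding at the other genes could not be assessed.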

Other observations

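The arrangement seen at Scn8a, both elements on opposite strands and back to back, was counted over the list after that region had been seen. It occurred with a gap of 0 to 20 bases in 38 of 2504 regions (1.52%) and in 0 of 5007 flanking windows, which allows a share of up to 0.0599%, for counting error only. The gap was 0 in 6 regions, 1 in 20 and 2 in 6. In 29 of the 38 regions there was neither a full RE1 nor the elements on 1 strand at a wider gap, and their median rank was 716, beside 976 for the 1433 regions with a full RE1. Perfect pairs with a gap of 0 occurred at 2 places in the genome, both in listed regions, at ranks 716 (Scn8a) and 1055. The region of rank 1055 also held a full RE1, and that of rank 716 had prompted the count. Of such pairs with 1 mismatch 4 of 7 lay in a listed region, and of those with 2 mismatches 0 of 49.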
